A study of Rattus norvegicus with 4 samples.

Results

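The genes described here belong to 3 stress programmes of the cell: the response to unfolded protein in the endoplasmic reticulum (ER), the integrated stress response and the heat shock response. They were chosen by name, as the array probes that carry 1 of 34 gene symbols, 10 of ER stress, 8 of integrated stress and 16 of heat shock. Of the 34 genes, 32 had a probe (43 of 30367 probes), and Hspa1a and Sesn2 had none under those names. A probe entered the test when both arrays of 1 or the other group had it well above background, which left 31 of these genes and 41 of their probes. Hspa1l, a testis-enriched HSP70, was not well above background on any array. In the whole series, 12858 of 22136 genes were tested.

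Total RNA was profiled on 4 one-colour Agilent arrays, from a spleen cell fraction of male WKAH rats aged 8 to 12 weeks. In the 2 saline arrays (saline 1 and saline 2) the rats had been given saline, and in the 2 liposome arrays (liposome 1 and liposome 2) liposomes, vesicles of lipid that phagocytes take up, 24 h before the spleen was taken. In both groups magnetic beads removed cells bearing MHC class II (antibody OX-6), and a second step kept cells bearing CD11b/c with the antibody OX-42; this integrin is carried by myeloid cells. The composition and dose of the liposomes are not given in the sources used here, and the labels do not tell whether separate animals stand behind the arrays, so every p-value below measures only the spread between these arrays, which may be technical.

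Proteins that misfold in the ER are sensed there by IRE1, ATF6 and PERK. IRE1 splices the mRNA of Xbp1, ATF6 is cut to a free transcription factor, and both then switch on genes for ER chaperones and for the removal of misfolded proteins. PERK is 1 of a family of kinases that phosphorylate the translation factor eIF2alpha, which lowers protein synthesis while favouring translation of ATF4, the factor of the integrated stress response. Amino acid shortage, viral RNA and haem lack reach the same node through other kinases. The heat shock response is run by HSF1, which chaperones of the cytosol hold inactive until unfolded proteins draw them away. Phagocytes such as splenic macrophages express all 3 programmes at a basal level, since they make secreted proteins and degrade engulfed material. ATF4 and IRE1 are controlled largely after transcription, by translation and by splicing, which these arrays did not measure.

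The factors of these programmes bind short DNA motifs, and the promoters that carry them are shown first so that each can be set beside its gene's values. RefSeq promoters on assembly GRCr8 (250 bases before to 50 after the start site) were at hand for 9 ER stress, 8 integrated stress and 13 heat shock genes, and were searched on both strands. The ER stress response element, bound by ATF6 with NF-Y, was spelled as CCAAT and CCACG with 9 free bases between, and was in 22 of 33469 promoters (0.0657%). Among the ER stress genes, Xbp1, Hspa5, Hsp90b1 and Calr had it. It is in capitals in these stretches, each 5′ to 3′ on its gene's strand: Xbp1 at chr14:84604538-84604596 (plus strand), Hspa5 at chr3:38452953-38453011 (plus), Hsp90b1 at chr7:23012327-23012489 (minus, with 2 matches) and Calr at chr19:40213117-40213173 (plus, with the match on the other strand).
Xbp1: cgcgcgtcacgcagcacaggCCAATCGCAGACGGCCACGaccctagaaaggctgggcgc
Hspa5: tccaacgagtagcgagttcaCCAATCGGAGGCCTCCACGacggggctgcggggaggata
Hsp90b1: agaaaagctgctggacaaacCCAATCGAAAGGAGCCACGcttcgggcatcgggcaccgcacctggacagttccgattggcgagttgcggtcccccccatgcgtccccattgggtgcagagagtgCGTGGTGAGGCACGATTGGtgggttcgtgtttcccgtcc
Calr: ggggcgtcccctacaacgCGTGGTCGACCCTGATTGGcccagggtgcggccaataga

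The C/EBP-ATF response element, which ATF4 binds together with C/EBP factors, was spelled TGATGNAA and was in 1332 of the 33469 promoters (3.98%). Trib3 and Chac1 of the 8 integrated stress genes had it, and so did Herpud1 of the ER stress genes. It is in capitals on the other strand in Trib3 (chr3:161275534-161275574, minus strand) and Chac1 (chr3:126795944-126795991, plus strand).
Trib3: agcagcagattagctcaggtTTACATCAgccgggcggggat
Chac1: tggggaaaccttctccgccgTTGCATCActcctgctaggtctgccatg

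The heat shock element, bound by HSF1, was spelled as 3 alternating GAA and TTC units with 2 free bases between neighbours, and was in 267 of the 33469 promoters (0.798%). Of the 13 heat shock genes, Hspa8, Hsph1, Hspd1, Hspe1, Dnaja1 and Chordc1 had it, the last 2 downstream of the start site. Hspd1 and Hspe1, which encode the mitochondrial chaperonin HSP60 and its lid HSP10, lie head to head on chromosome 9 with 289 bases between their start sites, and the 2 overlapping matches between them, an element of 18 bases, belong to both promoters. The stretches are Hsph1 at chr12:10427312-10427364 (plus strand), Hspd1 at chr9:64084242-64084287 (minus strand) and Hspe1 at chr9:64084242-64084299 (plus strand), with the element in capitals.
Hsph1: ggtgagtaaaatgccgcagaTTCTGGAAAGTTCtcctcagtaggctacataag
Hspd1: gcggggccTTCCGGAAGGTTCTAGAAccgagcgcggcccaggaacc
Hspe1: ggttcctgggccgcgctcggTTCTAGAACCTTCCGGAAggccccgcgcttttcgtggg
Further motifs of unfolded-protein signalling were searched. The second ER stress response element (ATTGG and CCACG with 1 free base between) was in 17 promoters (0.0508%) and in Herpud1. The unfolded protein response element TGACGTGG was in 199 (0.595%) and in Bag3. A match describes letters in the window and is no evidence of binding.

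Of the 31 genes, 0 were called higher and 2 lower in the liposome arrays at a limma adjusted p under 0.05, Hspb1 of the heat shock genes and Ddit3 of the integrated stress genes. Over all 12858 genes tested, 623 were called higher (4.85%) and 525 lower (4.08%). The stress genes' share called in either direction was 6.45%, against 8.93% of all genes, a share near the background. Without adjustment, 4 of the 31 had a p under 0.05 with a higher and 5 with a lower mean. Without liposome 1, and also without liposome 2, 0 genes of the whole array were called (2169 and 2394 had an unadjusted p under 0.05), so each call below needed both liposome arrays. With no filter on dim probes, 0 of 21971 genes were called and 3000 had an unadjusted p under 0.05. Log2 values here are log2 intensities minus the array's 75th percentile, 0 meaning the level of that percentile, and each fold change subtracts the saline mean from the liposome mean and carries a standard error (SE), 2 arrays per group. Values of different genes are not comparable as levels, because each probe binds with its own strength. The median log2 fold change was -0.13 over 10 ER stress genes, -0.26 over 7 integrated stress genes and 0.09 over 14 heat shock genes, against -0.04 over all genes tested. The heat shock median was -0.036 with no filter on dim probes.

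**Figure D1:**
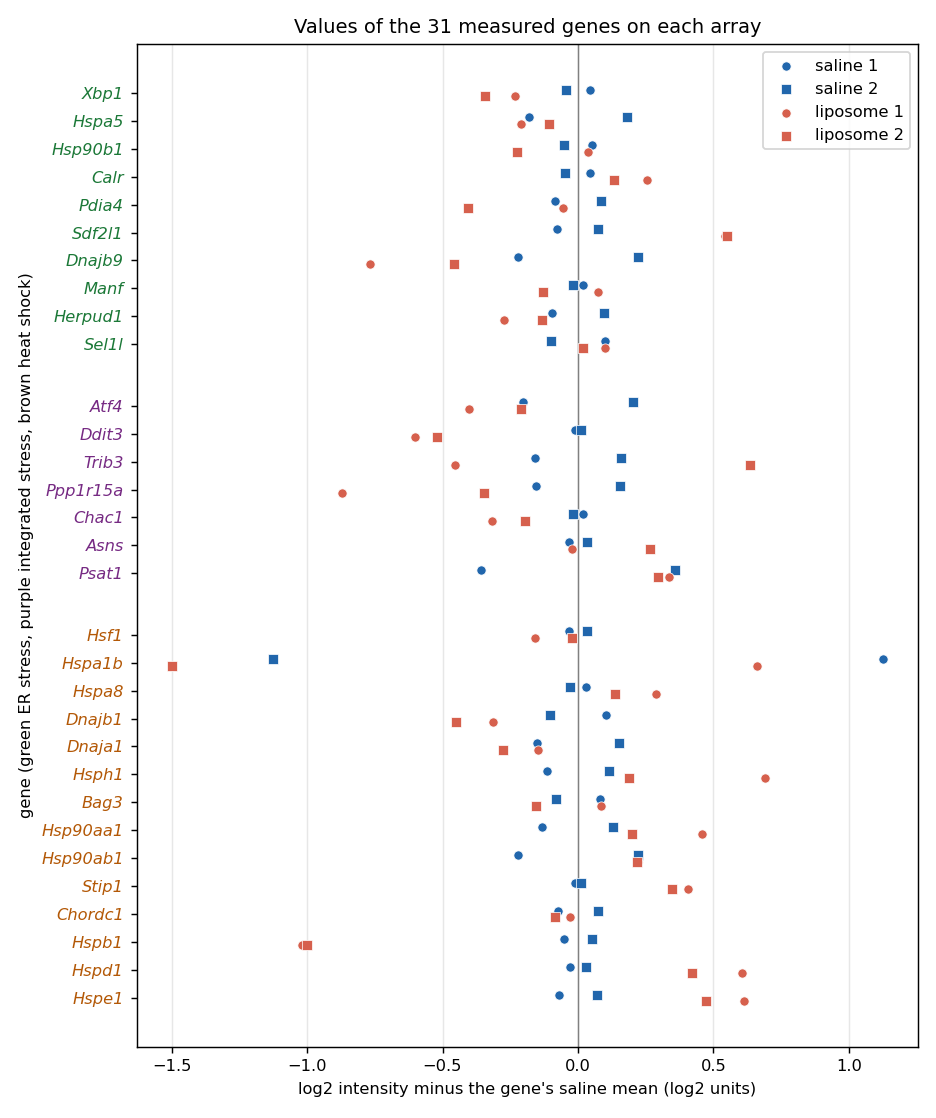
Each point is 1 array's log2 intensity of a gene minus that gene's mean over the 2 saline arrays (x axis, log2 units), with genes on the y axis grouped by programme; blue marks saline, red liposome, circles arrays numbered 1 and squares those numbered 2. Most genes lie within 0.5 log2 units of their saline mean, Hspb1 lies about 1 log2 unit lower on both liposome arrays, and Hspa1b separates circles from squares rather than red from blue.

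Marker genes of several cell types also differed between the groups. The antigen genes of the enrichment were present, with Itgam at 2.09 and 1.53 on the saline and 2.31 and 2.23 on the liposome arrays. Itgax read -1.13 and -1.32 against -1.73 and -1.56, and Itgb2 read 4.55 and 4.35 against 4.21 and 4.08. Itgam had a higher mean with liposomes, Itgax and Itgb2 had lower means, and none was called. The macrophage gene Cd68 was present at 5.18 and 4.86 with saline and 5.81 and 5.74 with liposomes. Of 14 macrophage markers, all tested, 1 was called higher and 7 lower. Their summed intensity, relative to the 75th percentile, was 118 and 117 on saline 1 and 2. It was 94.3 and 84.7 on liposome 1 and 2, the order kept below. Each such sum, here and below, is weighted towards its brightest probes and does not measure a cell type's markers evenly. Among the brightest macrophage markers, Cd68 had a higher mean with liposomes (log2 fold change 0.76, not called) and C1qb was called lower (-1.71). The neutrophil sum below rests largely on S100a8, S100a9 and Slpi, all called lower. Erythroid markers had 6 of 9 tested genes lower and a sum of 87.0 and 90.0 against 33.6 and 32.2 (Epb42, Trim10 and Hemgn not well above background). Neutrophil markers had 9 of 13 lower and a sum of 330 and 348 against 191 and 198 (Ltf and Mpo not above background), and dendritic cell markers 1 of 8 higher and 4 lower, with a sum of 11.5 and 10.5 against 5.94 and 5.42 (Zbtb46 and Xcr1 not above background). Of 12 B cell markers 0 were called, though all 12 lay lower on both liposome arrays, which 35.1% of all genes tested did. Their sum was 86.3 and 81.5 against 62.2 and 48.2. All 13 natural killer markers tested had lower means with liposomes (median -1.34), as did 6931 of 12858 genes, with 0 markers called. Their median difference was -1.24 for liposome 1 minus saline 1 and -1.30 for liposome 2 minus saline 2. Most of them also differed between arrays of the same group, as given below. Of 14 T cell markers tested, 0 were called (median -0.12). In such bulk samples, fewer cells of a type and less RNA per cell cannot be told apart, and the part of these cell types in the results below was not tested.

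Hspb1, the small heat shock protein HSP27, which holds unfolded proteins and guards actin filaments, was the stress gene with the largest change. It read -0.61 and -0.51 on the saline arrays and -1.58 and -1.56 on the liposome arrays. Both liposome values lay below both saline values, with 0.95 log2 units between the nearest pair. The fold change was -1.01 ± 0.10 (SE), 2.01-fold lower with liposomes (limma adjusted p = 0.0196). The call held without saline 1 (adjusted p = 0.0400) and without saline 2 (0.0459), and was lost without liposome 1 (0.145) or liposome 2 (0.144). Its probe reads 60 transcript bases spread over chr12:21911494-21911664 on the minus strand of assembly rn4, so its match to the genome is interrupted.
Hspb1 probe: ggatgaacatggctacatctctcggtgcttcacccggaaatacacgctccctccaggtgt
The Hspb1 promoter held none of the motifs above in the window searched. Also called lower were 6 of 9 erythroid, 9 of 13 neutrophil, 7 of 14 macrophage and 4 of 8 dendritic cell markers, beside 4.08% of all genes tested. In the macrophage and in the dendritic cell list 1 marker was called higher. All 13 natural killer and all 12 B cell markers tested had lower means without a call, where 6931 of 12858 genes had lower means. The part of any of these cell types in the change of Hspb1 was not tested.

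Hsf1, the factor of the heat shock response, read 1.18 and 1.25 with saline and 1.06 and 1.19 with liposomes, and the groups overlapped (-0.09 ± 0.11, limma adjusted p = 0.578). Of the 14 heat shock genes tested, 7 had a positive and 7 a negative fold change. The groups did not overlap in 6 higher and 2 lower genes, where all genes tested had 30.3% higher and 35.1% lower without overlap. Of the 14, only Hspb1 had groups at least 0.5 log2 units apart, which 5.77% of all genes did in the higher and 5.85% in the lower direction. After Hspb1, the heat shock genes nearest to a call were Hspe1, Hspd1 and Stip1, of the mitochondrial and HSP90 systems, all with higher means on the liposome arrays. The 0 called higher compare with 3 at an unadjusted limma p under 0.05.

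The mitochondrial chaperonin pair came next to the threshold. Hspd1 read 3.31 and 3.37 with saline and 3.95 and 3.76 with liposomes, a fold change of 0.51 ± 0.11 (1.43-fold, limma adjusted p = 0.0664). Hspe1 read 3.89 and 4.03 with saline and 4.57 and 4.43 with liposomes, a fold change of 0.54 ± 0.11 (1.46-fold, limma adjusted p = 0.0622). Both genes, which share the heat shock element printed above, were above both saline values on both liposome arrays, and neither passed the threshold. They were called with normexp background correction (adjusted p = 0.0368 and 0.0406) and with an intensity trend and robust fit (0.0314 and 0.0275). A second Hspe1 probe gave 0.77 ± 0.19. Elsewhere the element was in Hsph1 (fold change 0.44), Hspa8 (0.21), Dnaja1 (-0.21) and Chordc1 (-0.06), none of them called. Among the other heat shock genes and singled out after its value was seen, Hspa9, the HSP70 of mitochondria, read -0.50 on each saline array and -0.07 and -0.06 on the liposome arrays (0.43 ± 0.09, adjusted p = 0.0636).

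In the HSP90 system, which finishes the folding of kinases and receptors, 3 of 4 genes had a positive fold change and 0 were called. Stip1, the cochaperone HOP that passes clients from HSP70 to HSP90, read -0.32 and -0.30 with saline and 0.10 and 0.04 with liposomes (0.38 ± 0.10, adjusted p = 0.0820). Hsp90aa1, the inducible HSP90, read 2.88 and 3.14 against 3.47 and 3.21 (0.33 ± 0.16, adjusted p = 0.230). The groups did not overlap in either gene with the probes used. The other Hsp90aa1 probes gave 0.33 and 0.13, and with the latter the groups overlapped. Hsp90ab1, the constitutive form, read 5.40 and 5.85 against 5.85 and 5.84 (0.22 ± 0.18, adjusted p = 0.439), and its other probes gave 0.07 and 0.06. Chordc1, an HSP90-binding cochaperone, had a fold change of -0.06 ± 0.11 (adjusted p = 0.745). The 95% intervals of Hsp90aa1, Hsp90ab1 and Chordc1 included no change, and that of Stip1 did not.

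The HSP70 system had fold changes of both signs and no call. Hspa8, the constitutive HSP70 of the cytosol, read 6.79 and 6.73 with saline and 7.04 and 6.90 with liposomes (0.21 ± 0.11, adjusted p = 0.252). Its 4 probes all lay between 0.21 and 0.48; the gene has many processed copies in the genome that such probes may also read. Dnajb1, the HSP40 that loads HSP70 and is itself a target of HSF1, read 2.07 and 1.86 against 1.65 and 1.51 (-0.38 ± 0.13, adjusted p = 0.126). Dnaja1, another HSP40, stood at 3.43 and 3.73 against 3.43 and 3.30 (-0.21 ± 0.15, adjusted p = 0.365). Hsph1, the HSP110 that exchanges nucleotide on HSP70, read -2.23 and -2.0 against -1.42 and -1.92 (0.44 ± 0.21, adjusted p = 0.229). Bag3, which hands HSP70 clients to autophagy, read 1.95 and 1.79 against 1.96 and 1.72 (-0.04 ± 0.14, adjusted p = 0.872). The liposome arrays were lower for Dnajb1 and higher for Hspa8 and Hsph1 without overlap, and overlapped the saline arrays for Dnaja1 and Bag3.

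**Figure D2:**
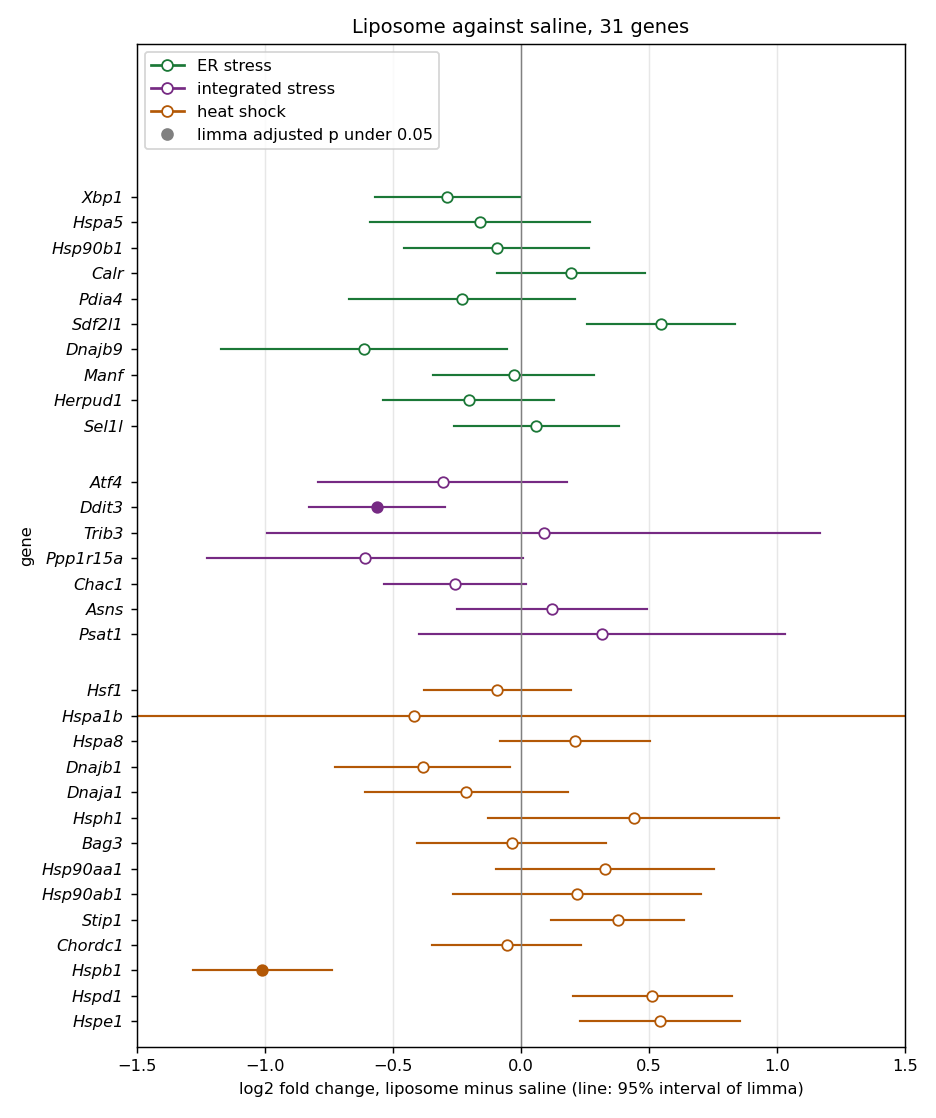
Points give the log2 fold change of each gene, liposome minus saline (x axis), and lines its 95% interval from limma with 2 arrays per group; colours mark the programmes and filled points an adjusted p under 0.05. Only Ddit3 (-0.56) and Hspb1 (-1.01) are filled, and the interval of Hspa1b runs past both ends of the axis.

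Hspa1b, the inducible HSP70 and the classical mark of an active heat shock response, split the arrays by the number in their titles, which end in "exp1" or "exp2", each on 1 saline and 1 liposome array. It read 1.73 on saline 1 and 1.26 on liposome 1, but -0.53 on saline 2 and -0.90 on liposome 2. Number 2 minus number 1 was -2.25 in the saline and -2.16 in the liposome group, while liposome minus saline was -0.46 among the arrays numbered 1 and -0.37 among those numbered 2. The fold change of -0.42 ± 1.07 (limma adjusted p = 0.810) comes from a fit without the title number as a term, and its 95% interval, from 0.100-fold to 5.58-fold, includes the spread between the numbers. The probe is spotted 10 times on each array, and the SD over its spots was 0.06 to 0.09 log2 units, far below the gap between the numbers. A second Hspa1b probe was not well above background on any array, so the split was read from 1 probe. Ranked by the smaller of its 2 same-direction differences by number, Hspa1b stood at place 5 of 12858 genes. Hspa1a encodes nearly the same protein from nearly the same sequence, and a probe named for Hspa1b may read both.

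Other heat shock genes differed less by number. Number 2 minus number 1 was -0.21 and -0.14 for Dnajb1, -0.16 and -0.24 for Bag3, and 0.23 and -0.50 for Hsph1, in the saline and liposome group in turn. Hspb1 differed by 0.11 and 0.02. Beyond "exp" and the number, the labels do not describe what these arrays share. Most natural killer and T cell markers also differed by number. The median of 13 natural killer genes was 1.69 higher on saline 2 than saline 1 and 1.66 higher on liposome 2 than liposome 1. That of 14 T cell genes was 1.35 and 0.99 higher. Some members departed from this, with -0.41 and -0.14 for Cd4 and -0.34 and -0.26 for Cd8b. Klrk1 differed by -0.14 and 0.27, and Tbx21 by 0.12 and 0.04. Summed intensities were 76.2 and 53.5 for natural killer and 22.5 and 23.3 for T cell genes on saline 1 and liposome 1. On saline 2 and liposome 2 they were 165 and 87.9, and 53.5 and 43.6 (Ncr3 and Cd28 not well above background). The natural killer sum is weighted by Tbx21, the brightest of that list. It read 5.23 and 5.35 with saline and 5.21 and 5.25 with liposomes, so the sum understates the differences of the dimmer genes. Hspa1b was low on the arrays on which most of these lymphocyte genes were high, and their part in its split was not tested.

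**Figure D3:**
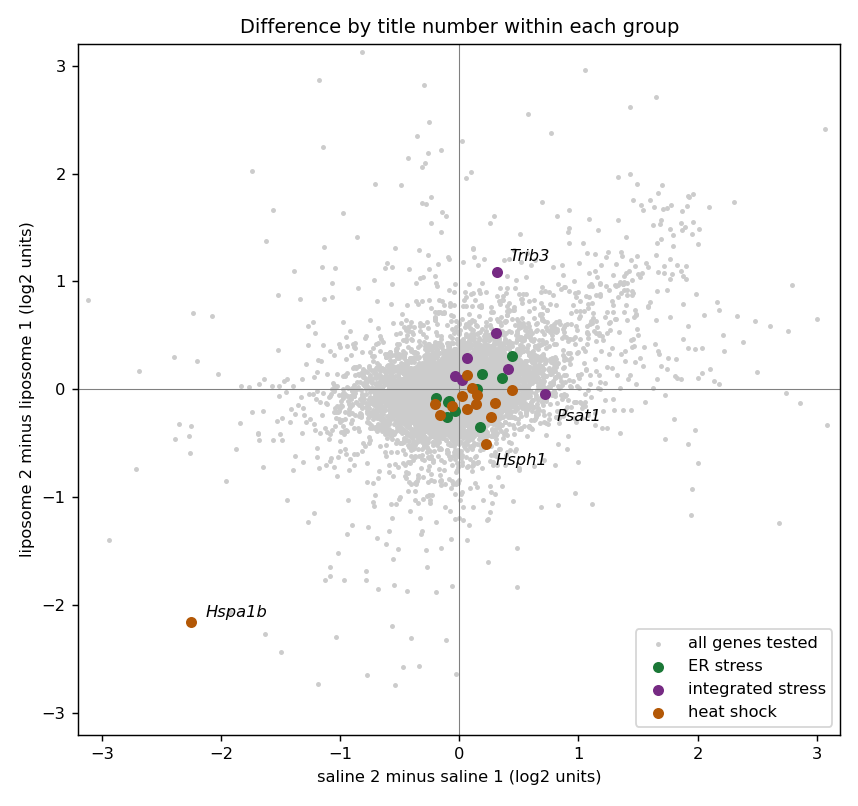
Each point is a gene, with saline 2 minus saline 1 on the x axis and liposome 2 minus liposome 1 on the y axis (log2 units); grey points are all genes tested, some of which lie outside the axes, and coloured points the stress genes. Hspa1b lies at -2.25 and -2.16, and the next farthest stress gene from the origin is Trib3 at 0.32 and 1.09.

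Among the ER stress genes, 0 of 10 were called in either direction by limma. Without adjustment, 1 had a p under 0.05 with a higher and 2 with a lower mean. The fold changes ran from -0.61 to 0.55, with 3 positive and 7 negative. Xbp1, the factor made active by IRE1, read 2.69 and 2.61 with saline and 2.42 and 2.31 with liposomes, lower on both liposome arrays (-0.29 ± 0.10, adjusted p = 0.151). The array does not tell the spliced from the unspliced mRNA. Xbp1 and Derl3, an ER degradation gene listed below, are also plasma cell markers. Of the 9 such markers tested, Xbp1 and Derl3 included, 0 were called and 8 had lower means, as did 6931 of 12858 genes. The sum over the 9, weighted towards its brightest probe, that of Pou2af1, was 32.2 and 35.7 with saline and 26.4 and 21.7 with liposomes. Because Xbp1 and Derl3 are part of the count and the sum, neither is independent of their values. The part of plasma cells in these values was not tested.

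None of the major ER chaperones was called. Hspa5, the ER HSP70 called BiP that holds the 3 sensors inactive, read 5.18 and 5.54 with saline and 5.15 and 5.25 with liposomes (-0.16 ± 0.16, adjusted p = 0.522). Its 95% interval ran from 0.665-fold to 1.21-fold, so a rise above that upper bound lies outside it. Hsp90b1, the ER HSP90 called GRP94, read 3.24 and 3.14 against 3.23 and 2.97 (-0.09 ± 0.13, adjusted p = 0.654). Calr, calreticulin, which folds glycoproteins and stores calcium, read 3.50 and 3.40 against 3.70 and 3.58, higher on both liposome arrays without passing the threshold (0.19 ± 0.11, adjusted p = 0.279). With Xbp1, these are the genes whose promoters hold the ER stress response element printed above. Their 4 fold changes lay between -0.29 and 0.19. Pdia4, a protein disulfide isomerase, had a fold change of -0.23 ± 0.16 (adjusted p = 0.378) and Manf, a secreted partner of BiP, one of -0.03 ± 0.12 (adjusted p = 0.884), and in both the groups overlapped.

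The lowest and the highest fold change of the ER stress genes belonged to Dnajb9 and Sdf2l1, both short of the threshold. Sdf2l1, a partner of ER HSP40 proteins that keeps misfolded proteins from clumping, read 3.40 and 3.55 with saline and 4.02 and 4.03 with liposomes. Both liposome values lay above both saline values (0.55 ± 0.11, 1.46-fold, limma adjusted p = 0.0555). Its second probe also gave 0.55. Sdf2l1 was called with normexp (adjusted p = 0.0344), with probes well above background on all arrays (0.0478) and with an intensity trend and robust fit (0.0229). The second probe covers the end of the coding sequence at chr11:85879929-85879988 on the plus strand of rn4, and its last 15 bases, in capitals, encode the signal that retains the protein in the ER and the stop codon.
Sdf2l1 second probe: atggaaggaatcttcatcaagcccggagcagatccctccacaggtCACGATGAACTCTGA
Dnajb9, the ER HSP40 called ERdj4, a target of spliced Xbp1 that keeps IRE1 inactive, read 0.77 and 1.21 with saline and 0.22 and 0.53 with liposomes, below both saline values on both arrays (-0.61 ± 0.21, limma adjusted p = 0.131).

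Neither ER degradation gene was called. Herpud1, which gathers the export complex at the ER membrane, read 2.95 and 3.14 against 2.77 and 2.91 (-0.20 ± 0.12, adjusted p = 0.318). Sel1l, the adaptor of the ubiquitin ligase HRD1, read -1.64 and -1.83 against -1.63 and -1.72 (0.06 ± 0.12, adjusted p = 0.751), and its second probe gave -0.07.

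In the integrated stress response, 1 of 7 genes tested was called, Ddit3, and it was lower. Ddit3 encodes CHOP, the factor that ATF4 switches on under lasting stress and that favours cell death. It read 4.68 and 4.70 on the saline arrays and 4.09 and 4.17 on the liposome arrays, with 0.51 log2 units between the nearest values of the groups. The fold change was -0.56 ± 0.10, 1.48-fold lower with liposomes (limma adjusted p = 0.0461). That call stood close to the threshold: the adjusted p was 0.0647 with median scaling and 0.0527 with every probe tested on its own. Leaving out saline 1, saline 2, liposome 1 or liposome 2 gave 0.0812, 0.0771, 0.275 and 0.223, with fold changes from -0.60 to -0.52. The probe lies at chr7:67252505-67252564 of rn4, where no annotation was used here, so exon or UTR is not given.

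Atf4 itself read 5.73 and 6.13 with saline and 5.53 and 5.72 with liposomes, just below both saline values (-0.31 ± 0.18, limma adjusted p = 0.305). Ppp1r15a, or GADD34, which directs the phosphatase that undoes eIF2alpha phosphorylation, read 4.96 and 5.27 against 4.25 and 4.77, lower on both liposome arrays (-0.61 ± 0.23, adjusted p = 0.158). Trib3, a pseudokinase that restrains ATF4 and CHOP, read -1.12 and -0.80 against -1.42 and -0.33. The liposome arrays lay on either side of the saline arrays (0.09 ± 0.40, adjusted p = 0.893). The factor pair and both feedback genes gave 3 negative fold changes and 1 positive.

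The metabolic targets of ATF4 showed no call. Chac1, which degrades glutathione, read -1.09 and -1.12 with saline and -1.42 and -1.30 with liposomes (-0.26 ± 0.10, adjusted p = 0.175). Asns, asparagine synthetase, read -0.28 and -0.21 against -0.27 and 0.02 (0.12 ± 0.14, adjusted p = 0.570). Psat1, an enzyme of serine synthesis, read -1.26 and -0.54 against -0.56 and -0.60 (0.32 ± 0.26, adjusted p = 0.449). Only Chac1 had groups that did not overlap. Over the 7 genes this held for 4 lower and 0 higher, where 35.1% of all genes tested were lower and 30.3% higher without overlap. Sesn2, which restrains mTORC1, was outside the choice by name. A probe named RGD1566319, whose accession the RefSeq gene table pairs with Sesn2, read -2.04 and -2.42 against -1.42 and -2.36 (0.34 ± 0.36, adjusted p = 0.543).

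Wider lists of the same 3 pathways, which share no gene with those above, were read from the same fit. Of 30 other integrated stress genes tested, 4 were called higher and 2 lower, with a median of 0.01 and 15 fold changes of each sign. Of 35 other ER stress genes 1 was called higher and 1 lower (median -0.01), and of 38 other heat shock genes 1 higher and 0 lower (median 0.16, with 26 positive). The share called in either direction was 20% of the integrated stress, 5.71% of the ER stress and 2.63% of the heat shock list, beside 8.93% of all genes tested (4.85% higher and 4.08% lower). For 0 lower heat shock genes, 1 had an unadjusted p under 0.05 by limma. All 9 called genes were well above background on all 4 arrays.

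The highest of them was Gdf15, a secreted stress cytokine induced by ATF4 and CHOP as well as by p53. It read -0.21 and -1.04 with saline and 2.64 and 2.39 with liposomes, far apart on all arrays (3.14 ± 0.31, 8.81-fold higher, limma adjusted p = 0.0196). Aldh1l2, a mitochondrial folate enzyme induced by ATF4, read -1.24 and -1.52 against 0.68 and 0.52 (1.98 ± 0.14, 3.94-fold higher, adjusted p = 0.0124). Both were lost without liposome 1 (adjusted p = 0.107 and 0.0916) or liposome 2 (0.101 and 0.0870) and held without either saline array. Of the factors, Ddit3 was called lower (-0.56), and Atf4 (-0.31), Atf3 (-0.29, adjusted p = 0.240) and Atf5 (0.04, adjusted p = 0.843) were not called. Cebpb (-0.11, limma adjusted p = 0.523) and Cebpg (0.33, limma adjusted p = 0.112) were not called either. Cebpg was higher on both liposome arrays than on either saline array. Atf3, Atf5, Cebpb and Cebpg were picked from the list after their values were seen. The part of these factors in the 2 calls was not tested.

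The other calls were smaller. Aars1 and Nars1, which charge tRNA with alanine and asparagine, were higher by 0.73 ± 0.12 (1.66-fold, adjusted p = 0.0432) and 0.55 ± 0.10 (1.46-fold, adjusted p = 0.0492). Aars1 read 1.44 and 1.39 against 2.26 and 2.04, and Nars1 -1.15 and -1.22 against -0.67 and -0.59; with the mean of its probes Nars1 was at 0.36 (adjusted p = 0.164). The tRNA synthetases were drawn from the list as a group after the values were seen. Of 9 tested, 8 had a positive fold change (median 0.38), as did 5927 of 12858 genes. Called higher were 2 of the 9, beside 4.85% of all genes tested. Ddit4, the mTORC1 inhibitor REDD1, was lower by 1.75-fold (2.13 and 2.0 against 1.34 and 1.17, limma adjusted p = 0.0365). Slc38a2, an amino acid transporter, was 1.49-fold lower (2.69 and 2.76 against 2.14 and 2.17, adjusted p = 0.0444), and 0.0685 with median scaling. Each of these 4 calls was lost when any 1 array was left out, with adjusted p from 0.0583 to 0.266.

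Pdia5, a disulfide isomerase reported to help activate ATF6, was the largest ER stress call. It read 0.94 and 1.04 with saline and -0.14 and -0.12 with liposomes, 2.18-fold lower (-1.12 ± 0.10, limma adjusted p = 0.0163). The call was lost without liposome 1 (0.131) or liposome 2 (0.126). Wfs1, an ER membrane protein of calcium balance, read -4.33 and -4.61 against -3.61 and -3.68 (0.82 ± 0.14, adjusted p = 0.0437). That low signal was not called with normexp (0.31, adjusted p = 0.0988), with an intensity trend (0.0765), without saline 2 (0.0617), without liposome 1 (0.235) or without liposome 2 (0.202). Eif2ak3, which encodes the sensor PERK, read -0.03 and -0.24 against -0.66 and -0.78 (-0.59 ± 0.12, adjusted p = 0.0615). Derl3 read 0.28 and 0.85 against -0.08 and -0.05 (-0.63 ± 0.21, adjusted p = 0.132). Eif2ak3 and Derl3 were singled out after their values were seen, and both were lower on both liposome arrays without passing the test.

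Among the other heat shock genes the call was Hspbp1, a nucleotide exchange factor that turns HSP70 over. It read -1.47 and -1.52 with saline and -0.94 and -0.84 with liposomes (0.61 ± 0.10, 1.52-fold higher, limma adjusted p = 0.0433). The call was lost without any 1 of the 4 arrays (adjusted p from 0.0748 to 0.241). The 8 genes of the cytosolic chaperonin CCT, which folds actin and tubulin, were drawn from the list after the values were seen. All 8 had positive fold changes, as did 5927 of the 12858 genes tested. Their median was 0.21, and 0 were called by limma (3 with an unadjusted p under 0.05).

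**Figure D4:**
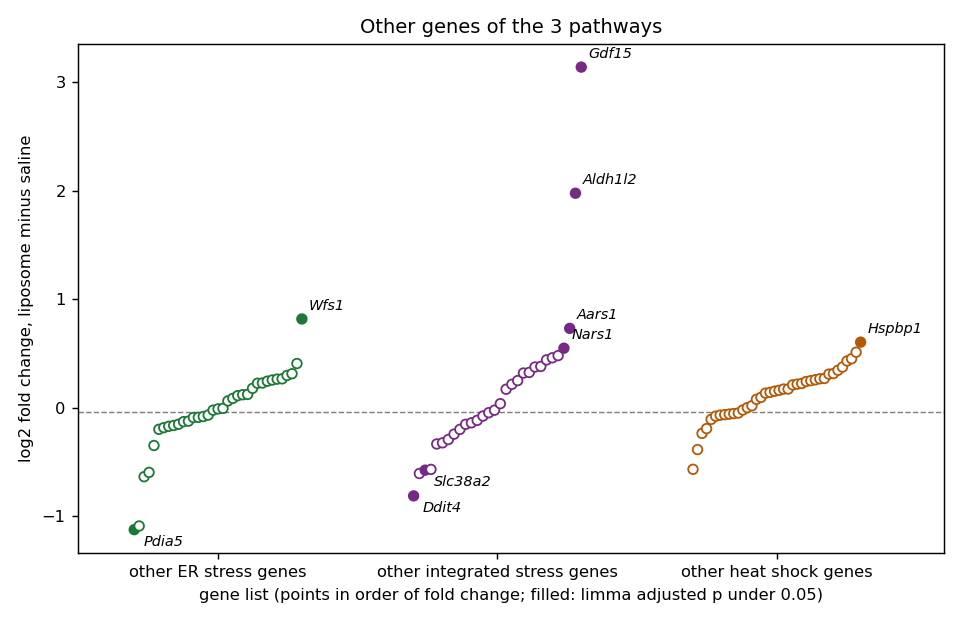
Each point is the log2 fold change of 1 gene, liposome minus saline (y axis), of the wider ER stress, integrated stress and heat shock lists (x axis, points in order of fold change); filled points have a limma adjusted p under 0.05 and the dashed line is the median of all genes tested, -0.04. Gdf15 at 3.14 and Aldh1l2 at 1.98 stand above the other genes of all 3 lists.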

How the data were processed

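The authors deposited linear intensities of each spot, and the submitters' processing notes name Agilent Feature Extraction 10.7.3.1 as the reader. Per the file headers the processed intensity is background-subtracted within each array and not scaled between arrays. On each array 61.3% to 66.3% of 42877 non-control spots were well above background, 0 were saturated and 1.14% to 1.36% carried an outlier mark. All 4 arrays lay on 1 slide read in 1 scan. Control and marked spots were left out, spots of a probe averaged, and each array's 75th percentile subtracted from the log2 values. Dropped were 278 probes that lacked a value somewhere. RefSeq symbols replaced 18006 of 30367 probe names, 8186 probes kept the file's name, and 4175 had none. A gene was read by its brightest passing probe. Log2 values were fitted with limma 3.58.1 (R 4.3.3; files read with the package data.table, version 1.17.8; lmFit and eBayes, 2 residual and 2.27 prior degrees of freedom), tested on simulated data first. Adjusted p-values are Benjamini-Hochberg over 12858 genes. No exact permutation test was run, since its smallest p here would be 0.333. The number of arrays limits the precision.

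Named are all the chosen genes, and of the wider lists up to 4 called genes per direction with the largest change, beside a few uncalled genes that the text says were picked after their values were seen. Gene lists, tests and alternatives were chosen with earlier results of these data known. Alternatives were median and quantile scaling, normexp with offset 50 on the deposited mean and background intensities, other dim-probe filters and probe rules, a replicate block, leaving out each array, and an intensity trend with robust eBayes. Probe positions are on rn4, per the file headers, and promoters on GRCr8.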

Additional observations from a re-analysis of the deposited data

How the results depend on the processing

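Under the alternatives that keep all 4 arrays, all 31 stress genes kept the sign of their fold change except Bag3, Chordc1, Manf and Sel1l, all near 0 and not called. Of 12858 genes, 623 were called higher and 525 lower. With no filter on dim probes both counts were 0 (limma, smallest adjusted p 0.143, 3000 genes with an unadjusted p under 0.05), so the calls of 1 lower integrated stress and 1 lower heat shock gene also became 0. With an intensity trend and robust fit the counts were 1088 and 938, with 1 ER stress and 2 heat shock genes higher. With normexp 870 genes were lower, and 1 ER stress and 2 heat shock genes higher. With probes well above background on all arrays 1 ER stress gene was higher. The lower integrated stress count was 0 with median scaling and 0 with every probe tested on its own. The ER stress median was -0.051 with median scaling and -0.082 with every probe, and the heat shock median 0.16, 0.22 and, with no filter, -0.036.

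With 1 array left out, the counts ran from 0 to 479 higher and from 0 to 365 lower (0 without either liposome array). Lower integrated stress genes numbered 0 to 0 and lower heat shock genes 0 to 1. The medians ran from -0.14 to -0.0098 for ER stress, from -0.40 to -0.10 for integrated stress and from 0.057 to 0.25 for heat shock. The lone array of a group is then assumed to vary like the other group. The cause of these shifts was not tested, except that fewer arrays widen the intervals.

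Titles end in "exp1" or "exp2" in both groups, and the labels do not say that arrays of one number share animals, a litter, a batch or a day. Over 12858 genes, number 2 minus number 1 correlated between the groups at r = 0.355 (a description across genes). Over the 31 stress genes r was 0.804, and 0.328 without Hspa1b (n = 30). With a replicate block 1091 genes were lower, 1 ER stress gene was higher (Sdf2l1, adjusted p = 0.0495) and 1 lower (Dnajb9, 0.0409), and 2 integrated stress genes were lower (Ddit3, and Ppp1r15a at 0.0456). Hspa1b was at 0.0762.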
